A study of Homo sapiens with 6 samples.

Results

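The replication-dependent histone genes are the genes that supply new histones when DNA is copied. They were taken from the RefSeq gene table (GRCh38.p14) as the protein-coding genes named H1-1 to H1-5, or H2AC, H2BC, H3C or H4C followed by a number, which gave 68 of 20046 protein-coding genes. A USP39 binding site, a stretch of 5 nt on one strand, was given to a gene when its central base lay in the gene's span, from the first to the last annotated base. By this rule 191 of the 34781 sites of the deposited list lay in histone genes.

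USP39 is a splicing factor that belongs to the tri-snRNP, a building block of the spliceosome. RNA bound to it was mapped by iCLIP2, in which UV light of 254 nm joins proteins to the RNA they touch, in wild-type HEK293T cells, an established line derived from human embryonic kidney. An antibody against USP39 was used in all 6 libraries, which form 2 groups of 3, from a low and a high region of the membrane that carried the protein-RNA complexes. One merged list of sites was analysed, and which libraries went into it is not given in the sources used here. Its score is 0 for every site, so a site has no height, the read depth is unknown and no value has a replicate error. The low and high regions could not be compared, and the control without UV light named in the design text was not analysed here.

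Histone mRNAs of this kind are unlike other mRNAs. Their genes lack introns, lie in clusters in many near-identical copies, and are transcribed mainly in S phase. The mature mRNA ends in a conserved stem-loop rather than a poly(A) tail. The stem-loop is bound by SLBP, and the U7 snRNP pairs with a sequence downstream of it to direct the cut. H2A, H2B, H3 and H4 form the core of the nucleosome, and H1 is the linker histone that binds where DNA enters and leaves it.

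Sites close to the 5' end of these genes are shown first, because they are the ones whose letters could be read. The windows of the RefSeq promoter table (GRCh38.p14) run from 250 bases before a gene's start to 50 bases after it, and 63 of the 68 genes had one. H4C1, H4C3, H2AC12, H3C11 and H3C12 had none. Each line below gives a gene, the position of the site's central base from the first base of the gene, and the DNA letters of the RNA strand from 5' to 3', with the 5 bases of the site in capitals. The first set shows 1 site per gene, from genes of every class, in the run of bases before the start codon (atg, to the right of the capitals), chosen because sites at this place recurred in all 5 classes.

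H1-2, base 36: cccgagtttttgATTCTcaacatgtccga
H2AC13, base 34: gataataggcctTTTGCcatgtctgggcg
H2AC17, base 30: taggccacaggtCGTTTtaccatgtctgg
H2BC13, base 20: tgccactattgtTTCATtatgcccgagct
H2BC21, base 39: tttgtactgtgtCTTACcatgcctga
H2BC4, base 19: catttctggtgtTTTAAgatgcctgagcc
H3C2, base 36: cttttctgtggtTTTGCcatggctcgtac
H3C10, base 18: gtgaatctagctCTGAAggcatggcgcgt
H4C2, base 27: tgttgtcagctgGTTAGacatgtctggtc
H4C4, base 31: ttaacagctgtgGTTTCaagatgtctggc

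The second set shows sites nearer to the first base of the gene. Its last line, from H2BC26, was chosen as the site without a T among its 5 bases.

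H2AC20, base 6: ttctctttcaatCTTATtttgttgcgagg
H2AC25, base 10: ctgccctcttgtTTTTAgtctcgcttttc
H2BC17, base 13: tcattcttgttaTTTGAgtgctctttcac
H2BC5, base 8: cgggagtgattaTTTTCtcaggtgtttgc
H4C2, base 12: cgcgtacctggtTTTTGttgtcagctggt
H4C5, base 6: ttgtttttcagaTTTTTgcggctattttc
H2BC26, 2 bases before the start: actccgagcgccGCGCGtttctgtttgga

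In all, 61 sites of 28 histone genes lay between 10 bases before the start and base 48, the last position at which all 5 bases of a site could be read. The central base was T (U in the RNA) in 51 of them, or 83.6% (95% Wilson interval 72.4% to 90.8%, which covers counting error only). It was C in 5, G in 4 and A in 1. T made up 37.5% of all letters in the same stretch of those 28 windows. In other protein-coding genes the same stretch held 604 sites in 431 genes, of which 62.7% had a central T (interval 58.8% to 66.5%), while T made up 22.3% of the letters there. The run TTT, searched on the RNA strand only, stood within the 5 bases of 37 of the 61 histone sites (60.7%), and within 16.1% of all 5-base stretches of those windows. For the other genes the shares were 32.5% of sites and 5.39% of stretches. The histone windows were thus richer in T than those of the other genes, and in both groups T was more frequent at the centre of a site than in the window. Proteins are joined to uridine more readily than to other bases by UV light of this wavelength, and the part of this in the share was not tested.

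USP39 sites were found in histone genes of every class. Of the 68 genes, 39 had at least 1 site (57.4%, interval 45.5% to 68.4%), beside 23.1% of all protein-coding genes counted in the same way. Among genes spanning less than 1000 nt, the length of an intronless histone gene, 33 of 60 histone genes had a site, beside 7.48% of all 535 protein-coding genes of that length. Without the histone genes, 7 of the other 475 short genes had a site, or 1.47%. RNA abundance was not measured, so none of these shares takes account of transcript levels in HEK293T cells. Where they had a site, the genes mostly had several: of the 39, 31 had 3 or more and 22 had 5 or more, with a median of 5 and a maximum of 12. Several sites were also common in other genes with a site. Of all protein-coding genes with a site, 55.8% had 3 or more, with a median of 3. Of the 7 other short genes with a site, 2 had 3 or more (28.6%), beside 25 of the 33 short histone genes (75.8%). Counted over genes with or without a site, at least 3 sites were found in 12.9% of all protein-coding genes. The share was 5.05% of those spanning less than 1000 nt and 0.421% of the short genes without the histone genes. For at least 2 sites, which 33 histone genes had, the shares were 16.3%, 5.61% and 0.632%.

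**Figure D1:**
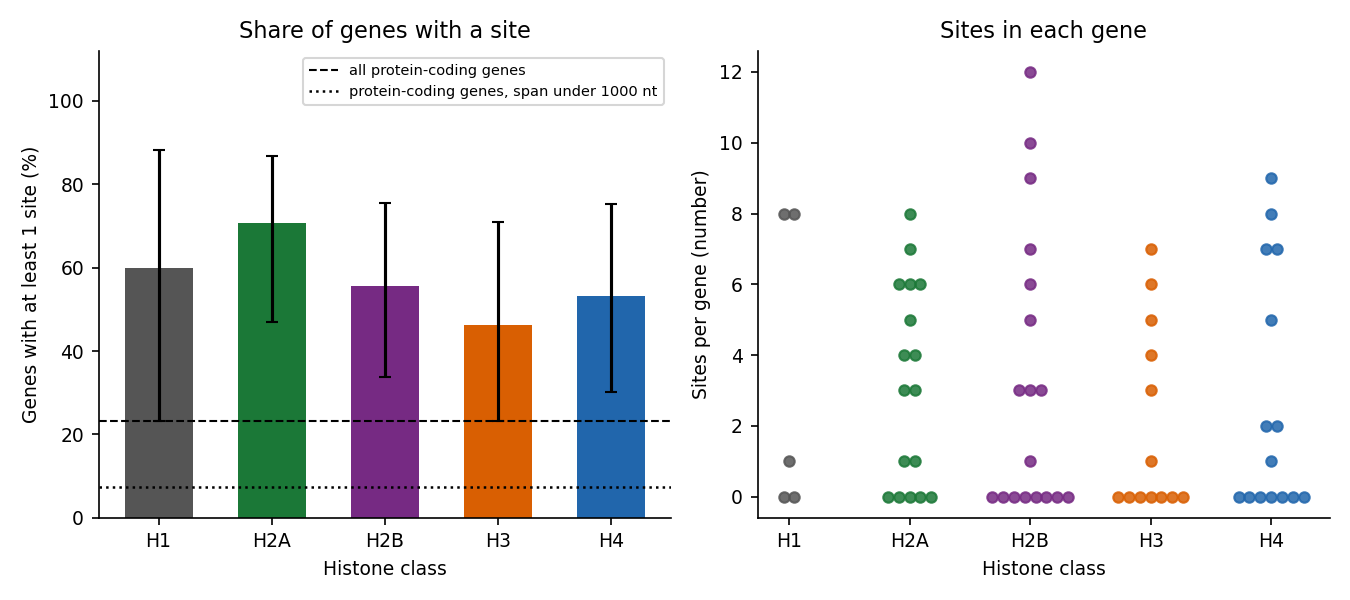
Left, the percentage of genes with at least 1 USP39 site in each histone class, with 95% Wilson intervals (counting error only); the dashed and dotted lines mark all protein-coding genes (23.1%) and those spanning under 1000 nt (7.48%). Right, the number of sites in each of the 68 genes, 1 point per gene; in every class some genes have 0 sites while others reach 7 to 12.

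The classes overlapped in the share of genes with a site. H2A genes had the highest, with 12 of 17 (70.6%, interval 46.9% to 86.7%), and H3 genes the lowest, with 6 of 13 (46.2%, interval 23.2% to 70.9%). Between them were H1 with 3 of 5, H2B with 10 of 18 (55.6%) and H4 with 8 of 15 (53.3%). Each of these intervals contains the share of all 68 genes, so the order of the classes is not resolved by these numbers of genes. In genes spanning under 1000 nt, the density over all genes of a class was 7.36 sites per kb in H4, 6.33 in H2A, 4.42 in H1, 3.63 in H3 and lowest in H2B. Of the 59 sites of H2B genes only 17 lay in such short spans, and the others in the 5 H2B genes with long ones.

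Among the linker histone genes, H1-2 (chromosome 6, 26055740 to 26056470) and H1-4 (26156329 to 26157115) had 8 sites each. The sites of H1-2 were centred on bases 31, 36, 99, 214, 356, 401, 648 and 697 of 731, and those of H1-4 on bases 57, 194, 237, 376, 580, 728, 733 and 745 of 787. Both genes thus had sites spread along the span as well as close to its end. H1-3 had a single site, centred on base 36. H1-1 and H1-5 had 0.

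Among the H2A genes, which encode the core histone that pairs with H2B, H2AC20 on chromosome 1 (149886918 to 149887411) had the most sites, 8, at bases 6, 11, 40, 51, 133, 208, 381 and 407. H2AC6 had 7, and H2AC4, H2AC7 and H2AC17 had 6 each. H2AC13 had 5, and H2AC21 and H2AC25 had 4 each. The 5 H2A genes without a site were H2AC1, H2AC8, H2AC14, H2AC18 and H2AC19. Sites thus lay in H2A genes of both chromosome 1 clusters as well as of chromosome 6.

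Among the H2B genes, H2BC12 had 12 sites, H2BC21 had 10 and H2BC5 had 9. The sites of H2BC21 were centred on bases 7, 12, 26, 39, 157, 232, 238, 254, 405 and 415, and those of H2BC5 on bases 3, 8, 20, 37, 218, 413, 422, 434 and 450. In both genes 4 of the sites lay before base 40 and the last ones between bases 405 and 450. H2BC17 had 7, H2BC18 had 6 and H2BC4 had 5. The 8 genes without a site were H2BC1, H2BC3, H2BC6, H2BC7, H2BC8, H2BC9, H2BC10 and H2BC14. H2BC12L, a protein-coding gene whose name places it outside the rule, also had 0.

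Among the H3 genes, H3C2 had 7 sites, at bases 26, 36, 353, 369, 399, 466 and 476. H3C1 had 5, H3C10 had 4, H3C12 had 3 and H3C13 had 1. H3C4 had 6 sites within its span, but these are the same 6 that lay in H2AC7. The annotated span of H3C4 (chromosome 6, 26196784 to 26199293) contains that of H2AC7 (26198784 to 26199293) on the same strand, and both begin at the same base. With only sites held by no other gene, H2AC7 and H3C4 had 0. The other H3 genes, H3C3, H3C6, H3C7, H3C8, H3C11, H3C14 and H3C15, had no site.

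Among the H4 genes, H4C4 (chromosome 6, 26188710 to 26189112) had 9 sites in a span of 403 nt, or 22.3 per kb, the highest density of the 68 genes. They were centred on bases 17, 31, 177, 220, 330, 338, 352, 357 and 362, so that 5 of the 9 lay between bases 330 and 362, near the end. H4C2 followed with 8 sites (20.6 per kb), at bases 12, 17, 27, 185, 216, 302, 348 and 358, and H4C5 and H4C8 with 7 each (17.0 and 17.1 per kb). H4C1 had 5, H4C3 and H4C11 had 2 each, and H4C16, which lies apart from the clusters on chromosome 12, had 1. H4C6, H4C7, H4C9, H4C12, H4C13, H4C14 and H4C15 had no site.

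No site lay on the strand opposite to its gene where the strand was known. In the 63 genes whose strand the promoter table gives, 178 of 178 sites were on the gene's strand (100%, interval 97.9% to 100%), beside 99.3% of 23382 sites in other protein-coding genes, counted there over sites held by 1 gene only. In H4C1, H4C3, H2AC12 and H3C12, which have no strand in that table, the sites of each gene were on 1 strand, and this strand was used to measure positions.

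Within the genes the sites were spread unevenly, with more near both ends than the length there makes up. The 33 genes with a site and a span under 1000 nt held 149 sites, and 44 of these (29.5%, interval 22.8% to 37.3%) had their central base in the first 50 nt, which make up 10.1% of the span length. Another 49 sites (32.9%, interval 25.9% to 40.8%) lay in the last 100 nt, which make up 20.2% of the length. The last 50 nt, the width used at the 5' end, held 21 sites (14.1%, interval 9.41% to 20.6%). They make up 10.1% of the length, which lies within that interval. Of the 191 sites in all histone genes, 129 (67.5%) had a neighbour in the gene within 50 nt. Intervals over sites treat such neighbours as independent, so they are likely too narrow. With sites within 50 nt joined, the share in the last 100 nt was 27.2%, against 32.9%. Of the 33 genes, 24 had a site within the first 50 nt, 26 had one within the last 100 nt, and 21 had both. Between these ends the sites were uneven, with 25 between bases 176 and 275 and 5 between bases 76 and 150. These stretches differ in width and were picked with the counts known. Bases 151 to 175 held 2 sites, bases 276 to 300 held 0 and bases 301 to 325 held 2. The counts of the other short genes, 11 sites on the coding strand in 5 genes, are too few to set beside these.

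**Figure D2:**
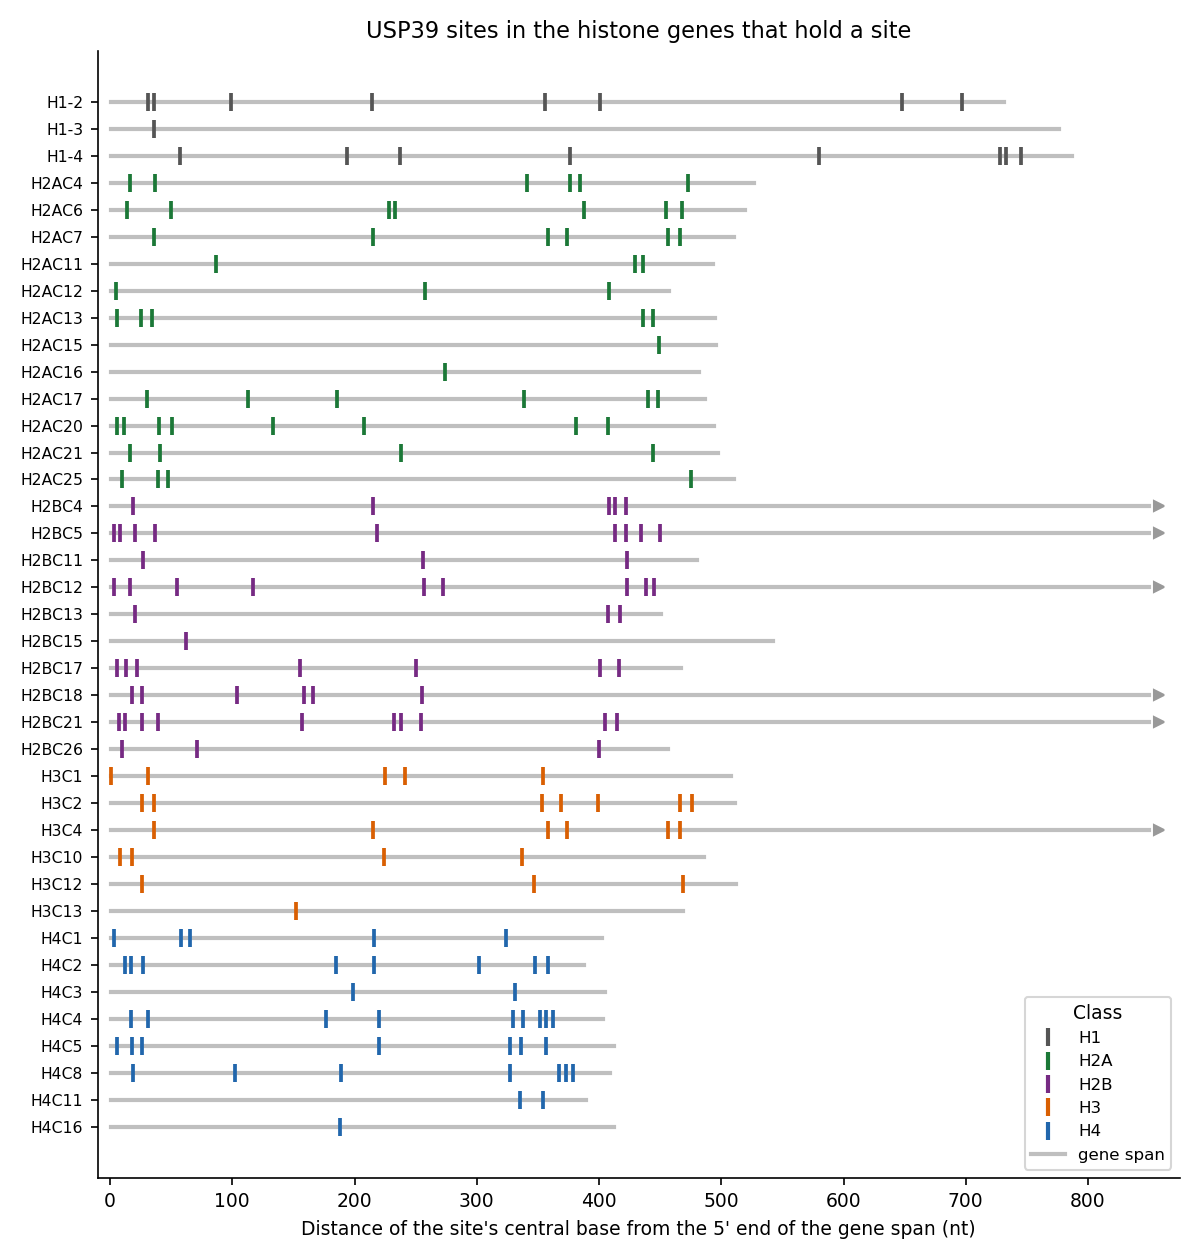
Each row is 1 of the 39 histone genes with a site, the grey line is its annotated span from the 5' end (nt), and each tick is the central base of a USP39 site; arrows mark spans that run on past the right edge, and H3C4 shows the same sites as H2AC7. Ticks gather in the first 50 nt and before the 3' end of the short spans, and in the long spans they stop at base 466 or before, except for 3 sites of H2BC12 further on that are not drawn.

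At the 3' end the sites stopped short of the end of the span. No site had its central base in the last 30 nt, which make up 6.05% of the span length (0 of 149). The closest sites, in H4C2 and H4C8, had 30 bases after their central base. The width of 30 nt equals this smallest distance, so the count of 0 follows from where the stretch was drawn. Directly before this empty stretch 36 sites had between 30 and 59 bases after them, in 23 of the 33 genes. They included the last sites of H1-2 and H2BC13 (34 bases), H2AC25, H3C2 and H4C11 (35), H2AC17 (39), H4C4 (41) and H1-4 (42). The stem-loop forms the end of the mature mRNA, but the letters there were not read, so sites were placed against the end of the span and not against the stem-loop itself. Whether a site in the last bases of such an mRNA could be detected by the method was not tested. Past the annotated end of the histone genes with a known strand, long spans included, 0 sites lay on the coding strand within 300 nt. For the short spans this is the stretch that holds the U7 pairing sequence in the precursor.

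**Figure D3:**
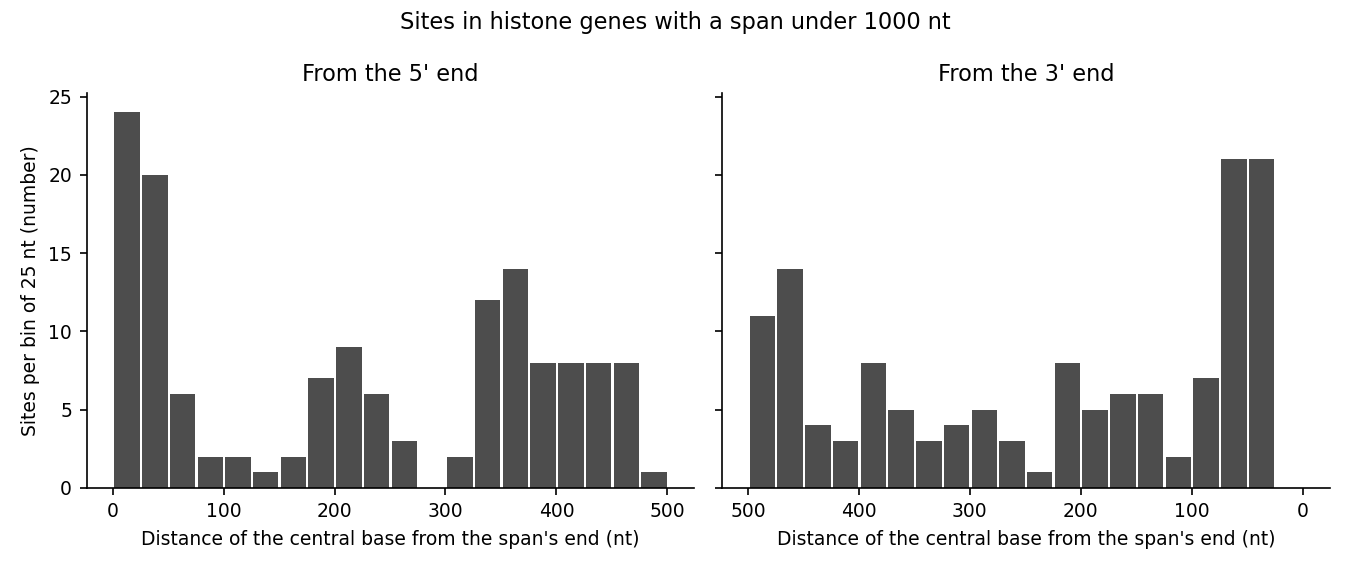
Number of sites per bin of 25 nt in histone genes spanning under 1000 nt, by distance of the central base from the 5' end (left) and from the 3' end (right), shown to 500 nt (149 sites in all). The bins next to the 5' end hold 24 and 20 sites; on the right the bin at the 3' end is empty and the next 2 hold 21 each.

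The share of sites in the last 100 nt differed between the classes, but the intervals overlapped, so these differences are not resolved. In H4 genes 19 of 41 sites (46.3%, interval 32.1% to 61.3%) lay in the last 100 nt, which make up 24.8% of their shorter spans. In H2A genes 16 of 54 did (29.6%, beside 20.1% of the length), in H2B genes 6 of 17 (35.3%, beside 20.9%) and in H1 genes 5 of 17 (29.4%, beside 13.1%). In H3 genes 3 of 20 did (15.0%, interval 5.24% to 36.0%), which is below the 20.1% of the length that this stretch makes up. For H2A, H2B and H3 the share of length lay within the interval of the share of sites. In the first 50 nt lay 18 of 54 sites in H2A genes, 10 of 41 in H4, 7 of 20 in H3, 6 of 17 in H2B and 3 of 17 in H1, above the share of length in each class, though within the interval for H1. The last 30 nt, a width drawn at the closest site of all classes, were by construction empty in each of the 5 classes.

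Several sites sat on the start of the gene itself. Centred 1 to 4 nt before the annotated first base, and so outside the span, were 10 more sites on the coding strand, in H1-4, H2AC11, H2AC12, H2BC4, H2BC13, H2BC18, H2BC26, H3C2, H3C10 and H4C3. The first base of H3C1 was the centre of another. Within 1000 nt of the genes, on either side and either strand and leaving out H3C11, which has no strand here, only 1 further site lay outside the spans, 986 nt before H4C8 on the opposite strand. Outside the spans, sites were thus found almost only at the first bases of a gene.

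The start codon could be placed in 38 genes, where the window held ATG followed by the first letters of the second codon of that class (ATGTC in H1, H2A and H4, ATGCC in H2B, ATGGC in H3). Of these genes 21 had a site. In the 19 of them with a span under 1000 nt, 27 of 90 sites lay before the start codon, in a leader that made up 7.03% of the span length. Within the leaders of all 21 genes the sites were spread: 13 of 32 (40.6%) lay in the 12 nt before the start codon, which are 36.1% of the leader length. Those 13 sites came from 12 genes, and their central bases stood 4 to 12 nt before the A of the start codon, as in the first set of sequences above.

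Counted from that A, some positions recurred between copies. H4C2, H4C4 and H4C5 each had a site at position 184 or 185. H4C5 and H4C8 had a site at 292 and H4C4 one at 294. H4C4, H4C5 and H4C11 each had a site at 301 or 302 and another at 321 or 322. H3C1, H3C2 and H3C10 shared a site at 314 or 315, and H2BC11, H2BC17 and H2BC21 one at 211 or 212. These are the positions, allowing 2 nt, that at least 3 genes of a class held after the start codon. The genes compared, those with a site and a placed start codon, numbered 6 in H2B, 4 in H3 and 5 in H4. No position recurred in this way in H2A. Where the coding sequence ends was not read, so positions late in the span, such as 321 or 322 in H4, may lie past it. Coding sequences of 1 class are alike, and how the authors treated reads that map to several copies is not given in the sources used here, so the number of sites in any single copy is uncertain.

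Some of the window pairs bear on this uncertainty. H4C11 and H4C12 have the same base at 295 of 300 window positions, and H4C11 had 2 sites while H4C12 had 0. Both sites of H4C11, at bases 335 and 354, lie past the window, so the letters there were not compared. H2AC13 and H2AC14 have the same base at 252 of 300 positions and at 47 of the first 50, and H2AC13 had 5 sites while H2AC14 had 0. The differences in the first 50, with the base of H2AC13 first and positions counted from the first base of the gene, are T18A, A21G and G28A. At each of the 3 sites of H2AC13 in this stretch, H2AC14 has the same 5 letters and no site, as the following lines show for the sites at bases 25 and 34.

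H2AC13, base 25: gaccgtatagatAATAGgccttttgccat
H2AC14, base 25: gaccgtaaaggtAATAGaccttttgccat
H2AC13, base 34: gataataggcctTTTGCcatgtctgggcg
H2AC14, base 34: ggtaatagacctTTTGCcatgtctgggcg

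H4C14 and H4C15 have identical windows, at 300 of 300 positions, and both had 0 sites. Over the 28 windows of genes without a site T made up 32.1% of the letters between 12 bases before the start and base 50, against the 37.5% given above for the windows with sites, and 12.6% of the 5-base stretches held TTT. The part of abundance, of sequence and of read mapping in these differences was not tested.

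In genes with an annotated span of 1000 nt or more, most sites lay in the first 500 nt. RefSeq gives such spans to 8 histone genes, among them H2BC18 (29682 nt) and H2BC5 (13229 nt), and 6 of the 8 had a site (75.0%, interval 40.9% to 92.9%), beside 23.5% of all protein-coding genes of that length. The other 2 were H3C6 and H4C15. The 6 sites of H3C4 among them are those of H2AC7, as described above. Of the 48 sites in the 6 genes, 45 (93.8%) lay in the first 500 nt, which make up 4.48% of the summed spans, and none of these was past base 466. The first 500 nt are about as long as a whole short histone gene (median span 487 nt), so sites in them are not all close to a start. In other protein-coding genes that span from 2000 to under 30000 nt, 7.30% of 14076 sites on the coding strand lay in the first 500 nt, which make up 3.63% of their length. Setting these shares side by side therefore does not compare sites near gene starts alone. All 6 sites of H2BC18, all 5 of H2BC4, all 9 of H2BC5 and all 10 of H2BC21 fell in that first stretch. H2BC12 (chromosome 6, 27138293 to 27146858) was the exception, with 9 sites in the first 500 nt and 3 centred on bases 8308, 8377 and 8457 of its 8566. The table gives no exons, so it does not say which transcript of H2BC12 these 3 sites belong to.

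Many H2A and H2B genes are neighbours that are transcribed away from each other from a shared promoter. In 12 such pairs the spans lay 193 to 247 nt apart. In 8 pairs both genes had a site, in 3 neither had, and in 1 only the H2A gene had. Over all genes of these classes, 12 of 17 H2A and 10 of 18 H2B genes had a site. How many pairs would be alike by such shares alone was not tested. H2AC20 and H2BC21 had 8 and 10 sites, H2AC17 and H2BC17 had 6 and 7, and H2AC6 and H2BC4 had 7 and 5. The pairs without a site were H2AC1 and H2BC1, H2AC8 and H2BC8, and H2AC14 and H2BC14. The pair that differed was H2AC7 with 6 sites and H2BC7 with 0. All 6 also lie in H3C4, and with only sites held by no other gene neither gene of this pair had one.

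**Figure D4:**
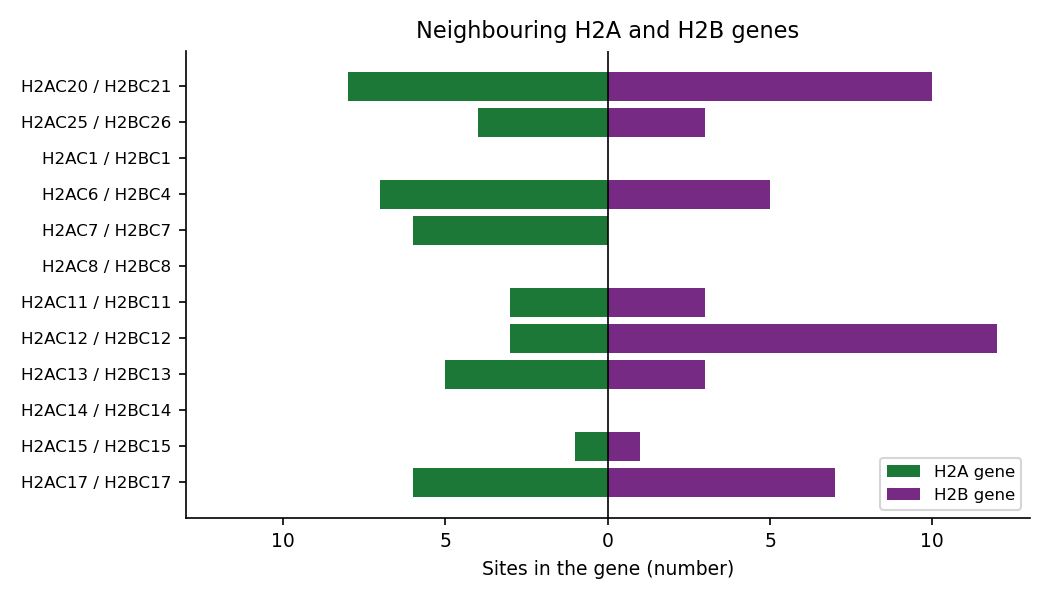
Number of USP39 sites in the H2A gene (left, green) and the H2B gene (right, purple) of 12 neighbouring pairs. Both genes of 8 pairs have a site, 3 pairs have none, and H2AC7 has 6 sites, all shared with H3C4, where its neighbour H2BC7 has 0.

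The genes without a site also lay next to each other in places. The main cluster on chromosome 6, from H1-1 to H4C8 (26017032 to 26285534), had a site in 17 of its 31 genes and 100 sites in all. In its last part, 6 neighbours in a row (H4C6, H4C7, H3C7, H2BC9, H3C8 and H2BC10, between 26240393 and 26273412) had none, while H4C8, the next gene, had 7. The part from H2BC11 to H2AC12 (27132316 to 27147562) had a site in 4 of 5 genes, and that from H2BC13 to H2BC17 (27807479 to 27893891) in 10 of 16. On chromosome 1, 5 of 11 genes between 149782689 and 149887965 had a site, and the other 6 followed one another (H4C14, H3C14, H2AC18, H4C15, H2AC19 and H3C15, between 149832657 and 149861240). They include H4C14 and H4C15, whose windows are identical. Further along chromosome 1, near 228457364, both H2AC25 and H2BC26 had a site. H2AC1 and H2BC1, which lie apart from the main cluster at 25726063 to 25727345 and are known for expression in testis, had no site.

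Replication-independent histone genes are expressed outside S phase, mostly with introns and a poly(A) tail. Of 11 such genes 7 had a site (63.6%, interval 35.4% to 84.8%), a share whose interval contains that of the replication-dependent genes. H2AZ1, which encodes the H2A.Z variant found at promoters, had 16 sites, H3-3B and H3-3A, which both encode H3.3, had 12 and 3, H1-10 had 9 and H2AZ2 had 7. H2AX, whose product marks DNA breaks, had 5, and MACROH2A1 had 3. H2AJ, H3-5, MACROH2A2 and CENPA had 0. Of 55 sites in the 7 genes, 5 (9.09%) lay within the first 50 nt, which make up 0.332% of their summed span, and 1 (1.82%) within the last 100 nt, which make up 0.663%. Their spans are longer, so these shares are not set against those of the replication-dependent genes. In H2AX, whose RNA can end in a stem-loop or a poly(A) tail, 2 of the 5 sites lay in the first 50 nt, at bases 26 and 37.

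Of 16 genes for the processing of histone precursors, 10 had a site, and SNRPB had the most with 19. The other Sm protein genes, whose products serve splicing snRNPs too, were SNRPD3 with 8, SNRPE with 7, SNRPF with 5 and SNRPG with 4. SYMPK, a scaffold of the cleavage complex, had 8 sites, SRRT had 6, SLBP had 4, CPSF2 had 3 and CPSF3, the endonuclease, had 1. RNU7-1, the gene of the U7 RNA itself, had 4 sites, though U7 has many pseudogene copies. The genes of the U7-specific proteins LSM10, LSM11 and ZNF473 had 0, as did CSTF2, NCBP1 and ERI1. Of 6 genes for histone gene transcription 2 had a site, E2F1 with 8 and POU2F1 with 1, and NPAT, the coactivator of histone genes in S phase, had 0. Of 8 genes for translation and decay of histone mRNA 4 had a site, EXOSC10 with 6, DCP2 and UPF1 with 4 each and TUT4 with 2.

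Of 14 histone chaperone genes, whose products carry histones to and from DNA, 10 had a site. NAP1L1 had 47 sites, RBBP4 had 40, NASP had 27, SSRP1 had 26 and SUPT16H had 15. MCM2 had 9, HIRA and CHAF1A had 7 each, ASF1B had 2 and HAT1 had 1. ASF1A, CHAF1B, DAXX and HJURP had 0. The further histone genes H1-6 and H3-4 had 0 as well. The shares of these lists ranged from 0 of 2 to 10 of 14 genes, beside 23.1% of all protein-coding genes, and their spans, with medians of 19455.5 nt for processing and 33084 nt for chaperones, are far longer than those of the histone genes.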

How the data were processed

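The authors deposited one merged BED list of USP39 iCLIP2 binding sites, which GEO files under replicate 1 of the low region; the deposited score is 0 throughout, so only position and strand were used. Per the submitters' processing notes, FastQC 0.11.9, STAR 2.7.3a, SAMtools 1.10, bedtools 2.29.2, UMI-tools 1.1.2 and build GRCh38.p12 were used; how sites were called and multiply mapped reads handled is not given in the sources used here. Positions count the first base as 1.

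Gene spans, windows and strands came from RefSeq tables (GRCh38.p14); exons and genome sequence were not used. Spans may overlap, and a site counts for each gene that holds its central base. Of 5 fixed symbols of further cluster histones, H2BU1, H2AW and H4-16 are older names of H2BC26, H2AC25 and H4C16, which are members, and were left out of the list; 1 gene of the replication-independent list is not reported here. Intervals are 95% Wilson intervals, which cover counting error only. Those over sites treat neighbouring sites as independent. No test was made, since the list has no values per library and genes are not replicates. Gene assignment was tested on simulated data.

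Members and lists were chosen with earlier results of these data known. Chosen after seeing the data were the analyses of base composition, leaders, the last 30 nt and sites 30 to 59 nt before the end. So were those of positions counted from the start codon, neighbouring pairs, window identity, sites outside spans and clusters. Named genes are, per class, those with the most sites, those with long spans, those with sites near an end, and those without a site, and each list gene with a site; any other gene was named with its values known. Scripts ran in Python 3.11.15 with matplotlib 3.10.9, numpy 2.4.6, scipy 1.17.1 and pandas 2.3.3.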

Additional observations from a re-analysis of the deposited data

How the results depend on the processing

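No paired analysis was possible because the merged list has no values per library; for the same reason no replicate could be left out. The 39 histone genes with a site became 37 with only sites held by no other gene, 33 with at least 2 sites required and 31 with at least 3, and stayed 39 with the whole site in the span, the span extended by 100 nt, or sites on the gene strand only. The number of sites was 113 with sites within 50 nt joined, against 191. The share of sites near the 3' end was 14.1% with a window of 50 nt, against 32.9% with 100 nt. The narrower window holds fewer sites by construction, and it makes up 10.1% of the length against 20.2%. The other 40 alternatives kept counts within 1.5 times, or shares within the interval, of the main value. Depth is unknown, so a gene without a site may have been too weakly covered to give one.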
